A study of Sus scrofa with 23 samples.

Results

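The pigs compared here were those of group I (-cDDGS+rapeseed oil) and group III (+cDDGS+beef tallow), 12 of the 23 pigs whose backfat was sequenced. The members were taken from the sample labels: 7 pigs were labelled with the diet without corn dried distillers grains with solubles (cDDGS, the dried maize residue of ethanol making) and with rapeseed oil, and 5 pigs with the diet that held cDDGS and beef tallow. The pigs were fatteners of Polish Landrace × White Large Polish sows and a Duroc × Pietrain boar, 4 females and 3 males in group I and 2 females and 3 males in group III, penned singly and fed to slaughter weight on diets of matched nitrogen and energy. The other 11 pigs, 6 in group II (+cDDGS+rapeseed oil) and 5 in group IV (+cDDGS+coconut oil), also ate cDDGS. The comparison asked how the backfat transcriptome of pigs given cDDGS with a saturated animal fat differed from that of the control pigs. Both the cDDGS and the fat differed between groups I and III, so their parts cannot be told apart in this pair. The study also describes the control diet as lower in crude fat and fiber and slightly higher in starch. The parts of these amounts cannot be told apart either. All values below are given with pig 48 of group III and, where it matters, without it.

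Backfat is subcutaneous adipose tissue, and in the pig adipose tissue is the main site of fatty acid synthesis. In that pathway citrate leaves the mitochondrion through SLC25A1, ACLY splits it to acetyl-CoA, ACACA and FASN build palmitate, SCD adds a double bond, and ME1 and the pentose phosphate enzymes supply NADPH. The aryl hydrocarbon receptor (AHR) is a ligand-activated transcription factor whose targets include TIPARP, a repressor of the receptor, and the cytochrome P450 gene CYP1A1. MHC class I molecules, encoded in the pig by the SLA genes, present peptides to T cells and are induced by interferons through factors such as IRF1.

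Between 3006222 and 5261962 reads per pig in group I and between 3768842 and 7979426 in group III were counted on genes. Levels are given as counts per 1000000 gene reads (CPM, scaled by TMM). The adipocyte markers PLIN1, LIPE, CIDEC and PPARG were present in every pig, with PLIN1 at 1063 to 1447 CPM in group I and 1009 to 1293 CPM in group III. In bulk tissue such as this, fewer cells of a type and less RNA per cell cannot be told apart. Of 14 measures of library makeup none passed after adjustment (exact permutation test, two-sided, smallest adjusted p = 0.212). Pig 48 stood apart in the share of its reads on the 13 named mitochondrially encoded genes, 12.9% against 9.79 to 10.4% in the other 4 pigs of its group, and in the summed liver markers, 1169 CPM against 54.8 to 675 CPM. It also had the smallest share of uniquely mapped reads outside genes among the 12 pigs, 51.1%.

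No gene was differentially expressed in edgeR's quasi-likelihood test, which found 0 DEGs (0% of 10423 tested genes) at an adjusted p under 0.05 and a fold change above 1.3, with a smallest adjusted p of 0.309. At an unadjusted p under 0.05, 424 genes (4.07%) were higher and 406 (3.9%) lower in group III. limma-voom, run with a quality weight for each library, also gave 0 DEGs, with 703 higher and 675 lower genes at an unadjusted p under 0.05. DESeq2 gave 13 DEGs, 5 overexpressed in group III (0.0392% of 12746 genes with an adjusted p) and 8 underexpressed (0.0628%). The groups did not overlap, every pig of group III lying above or every pig below all pigs of group I, for 22 higher genes (0.211%) and 14 lower genes (0.134%).

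Without pig 48, edgeR again gave 0 DEGs (0% of 10595 tested genes, smallest adjusted p = 0.132), with 468 higher (4.42%) and 537 lower genes (5.07%) at an unadjusted p under 0.05. limma-voom gave 1 DEG, AACS, which was lower. DESeq2 then gave 72 DEGs, 15 overexpressed (0.21% of 7153 genes with an adjusted p) and 57 underexpressed (0.797%). Leaving out any other pig gave between 5 and 36 DESeq2 DEGs. Counts more than 1.5 times above or below 13 came without pigs 1 (35), 3 (21), 41 (26), 43 (36) and 48 (72) on the higher side and without pigs 2 (8) and 45 (5) on the lower side. Pig 48 was singled out with its values known, so p-values without it describe the remaining 11 pigs and are not independent evidence.

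The study lists 13 genes for this pair of groups. Because the list was chosen on these same pigs, its directions are not independent evidence. All 13 passed the filter on low counts, and 12 of them were DESeq2 DEGs here, the exception being CYP2B6 (DESeq2 adjusted p = 0.0539). The 13th DESeq2 DEG, ENSSSCG00000023855, has no symbol in the tables used. It was at 0 to 0.189 CPM in group I and at 0.29 to 3.67 CPM in group III, and edgeR's filter on low counts removed it.

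The 5 genes listed as overexpressed in group III include the receptor AHR and its target TIPARP. AHR (ENSSSCG00000030484) was at 31.3, 35.9, 52.4, 38.4 and 43 CPM in pigs 41, 43, 45, 46 and 48 of group III, and at 19.3 to 29.9 CPM with a median of 20.7 in group I. TIPARP (ENSSSCG00000027646) was at 129, 104, 156, 114 and 115 CPM in the same order, against 46.6 to 93.5 CPM with a median of 70.9. The groups did not overlap for either gene, with or without pig 48. The log2 difference of AHR was 0.82 (SE 0.14, edgeR adjusted p = 0.309, DESeq2 adjusted p = 0.0014) and that of TIPARP 0.85 (SE 0.16, edgeR adjusted p = 0.309, DESeq2 adjusted p = 0.00321). In the exact two-sided permutation of the 12 pigs, both gave 0.00126, the smallest p that this test can give. Only a gene whose groups do not overlap can reach that value, so it adds little to the lack of overlap.

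SLA-1 (ENSSSCG00000001231), an MHC class I gene, had the largest log2 difference of the 5. It was at 47.8, 105, 151, 96.7 and 84.1 CPM in pigs 41, 43, 45, 46 and 48 and at 13.8 to 47.4 CPM with a median of 33.5 in group I, where pig 8 held the low value. The groups met closely at pig 41 but did not overlap, and the log2 difference was 1.49 (SE 0.27, edgeR adjusted p = 0.309, DESeq2 adjusted p = 0.00095). SLA class I genes are near copies of each other, so reads may have been split among them and the value of SLA-1 is uncertain.

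CYP2B6 (ENSSSCG00000003006), a cytochrome P450 that oxidises drugs and other foreign compounds, was at 69, 93.7, 92.7, 44 and 43.9 CPM in group III and at 17.2 to 61.2 CPM with a median of 18.4 in group I. The highest control pig lay above pigs 46 and 48, so the groups overlapped, and the log2 difference was 1.3 (SE 0.32, edgeR adjusted p = 0.478). Without pig 48 it was 1.42 and passed DESeq2's test (adjusted p = 0.0053). PIGY (ENSSSCG00000009211), a subunit of the enzyme that starts the GPI membrane anchor, was at 67.8, 73.9, 71.1, 48.7 and 125 CPM against 34.3 to 53.8 CPM with a median of 41.5. Pig 48 held its highest value and pig 46 lay inside the control range. The log2 difference was 0.83 (SE 0.19) with pig 48 and 0.59 without it. PIGY and PYURF share a position in the reference gene table, so their reads cannot be told apart.

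Among the 8 genes listed as underexpressed, the metabolic ones were UCP2 and ALDOC. UCP2 (ENSSSCG00000014833), a carrier of the inner mitochondrial membrane, was at 2.9, 3.39, 3.01, 2.2 and 4.51 CPM in group III and at 3.85 to 16.3 CPM with a median of 12.7 in group I. Only pig 48 reached the lowest control pigs, and the log2 difference was -1.77 (SE 0.35, edgeR adjusted p = 0.309, DESeq2 adjusted p = 0.00204). ALDOC (ENSSSCG00000017759), an aldolase of glycolysis, was at 431, 510.2, 486, 361 and 470.3 CPM against 558 to 761 CPM with a median of 737. Every pig of group III lay below every control pig, and the log2 difference was -0.59 (SE 0.13, DESeq2 adjusted p = 0.00472).

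IRF1 (ENSSSCG00000014277), an interferon-induced transcription factor, was at 12.2, 9.4, 10.9, 12.2 and 14.5 CPM in group III and at 14.8 to 27.2 CPM with a median of 21.7 in group I. The groups lay just apart, with a log2 difference of -0.83 (SE 0.18, DESeq2 adjusted p = 0.0411). SH3BP2 (ENSSSCG00000022004), an adaptor protein of immune cell signalling, also had groups that did not overlap, at 25.2, 25.1, 7.51, 15.1 and 17.3 CPM against 25.6 to 53.8 CPM. Its log2 difference was -1.11 (SE 0.26, DESeq2 adjusted p = 0.0411).

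C1QTNF6 (ENSSSCG00000030325), a secreted protein of the C1q/TNF family, was at 15.1, 16.8, 6.01, 9.1 and 10.5 CPM in group III against 15.9 to 38.8 CPM, with pigs 41 and 43 at or near the lowest control values. CLMN (ENSSSCG00000002494), which encodes calmin, was at 58, 50.4, 26.2, 51.2 and 47.5 CPM against 47 to 149 CPM, with only pig 45 clearly below the controls. HMMR (ENSSSCG00000017022), a hyaluronan-binding protein of the mitotic spindle, was at 9.56, 16, 9.87, 23.6 and 6.41 CPM against 17.1 to 48.2 CPM, and pig 46 lay inside the control range. HOXC10 (ENSSSCG00000022728), a homeobox factor of body patterning, was at 1.16, 0.462, 0.429, 0.44 and 1.43 CPM against 1.09 to 5.12 CPM, so it rested on few reads in every pig. The log2 differences of these genes were -1.18, -1.04, -1.3 and -2.11 (SE 0.28, 0.25, 0.32 and 0.45), each with an edgeR adjusted p of 0.478.

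**Figure D1:**
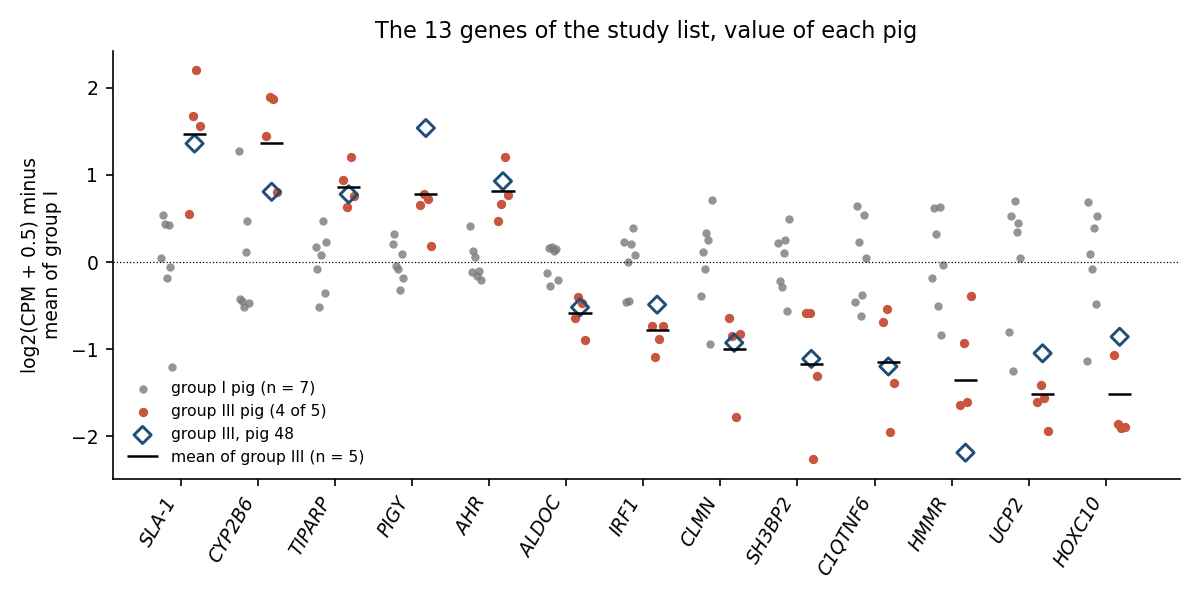
Values of the 13 listed genes in each pig on the log2(CPM + 0.5) scale, as the difference from the mean of group I (y axis, log2 units), with genes ordered by the fitted log2 difference on the x axis. Grey points are the 7 pigs of group I, red points 4 pigs of group III, the open diamond is pig 48 and the line the mean of all 5 pigs of group III. The 5 overexpressed genes sit above 0 and the 8 underexpressed genes below it in nearly all pigs of group III, and pig 48 is the highest or lowest of its group for PIGY, HMMR, UCP2, IRF1, HOXC10 and CYP2B6 and lies between the others for the rest.

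The listed genes differed in how many of DESeq2's leave-one-out fits they passed. SLA-1, UCP2, ALDOC and AHR remained DEGs in all 12 of these fits, and TIPARP in 11, its adjusted p being 0.0866 without pig 45. CLMN, IRF1, HMMR, SH3BP2 and C1QTNF6 remained in 6, PIGY in 5, and CYP2B6 and HOXC10 in 4. Without pig 45, only SLA-1, UCP2, ALDOC and AHR of the 13 were DEGs. The edgeR log2 difference kept its sign for all 13 genes in these 12 fits, from 0.71 to 0.91 for AHR and from -1.93 to -1.64 for UCP2.

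Of 7 tested genes of the AHR pathway, only AHR and TIPARP had an unadjusted p under 0.05, and the median log2 difference over the 7 was 0.08 against 0.00 over all 10423 tested genes. The classical target CYP1A1 was at 8.98, 7.7, 6.23, 3.67 and 0.95 CPM in group III and at 1.09 to 8.24 CPM in group I (log2 difference 0.58, SE 0.51, edgeR adjusted p = 0.818), with the lowest value of all 12 pigs in pig 48. NFE2L2, the antioxidant response factor, was at 156 to 194 CPM in group III and 145 to 191 CPM in group I. Of 6 tested genes on a list of P450 genes, their regulators and related enzymes, CYP2B6 was higher and CYP2U1 and AKR1B1 lower at that level. AKR1B1 is an aldo-keto reductase and not a P450. The median was 0.08, or -0.21 without pig 48.

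Of 8 tested genes of MHC class I presentation, only SLA-1 had an unadjusted p under 0.05, and the median was 0.09. Without pig 48, TMP-SLA-3 was lower at that level as well. The chaperones of class I folding CALR and CANX had log2 differences of 0.25 and 0.23, and TAPBP, which loads peptides, -0.40. None of the 5 tested class II genes had an unadjusted p under 0.05, and CIITA, their activator, was at 2.31 to 5.23 CPM in group III and 1.5 to 7.13 CPM in group I. The interferon response list moved in both directions, with 5 of 15 genes higher, 2 lower, and a median of 0.25. TRIM25, a ubiquitin ligase of antiviral signalling, was at 8.31 to 11.2 CPM against 3.27 to 8.87 CPM, with only pig 48 reaching the control range. SP100, a nuclear body protein, was at 39.8 to 56.2 CPM in group III, above all control pigs at 30.9 to 38.4 CPM, with a log2 difference of 0.38 (SE 0.11, edgeR adjusted p = 0.555). MX2, SP110 and the repressor IRF2 were also higher at an unadjusted p under 0.05, while STAT2 was lower together with IRF1.

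Of 10 tested genes of GPI anchor synthesis only PIGY, of 8 tested HOX genes only HOXC10, of 4 tested C1q/TNF genes only C1QTNF6, of 5 cell division genes only HMMR and of 5 uncoupling and carrier genes only UCP2 had an unadjusted p under 0.05. UCP3, the muscle-type uncoupling protein, was at 113, 53.8, 19.3, 40.2 and 144 CPM in group III and spread on both sides of the 36.6 to 121 CPM of group I. Without pig 48, the cell cycle genes TPX2 and TOP2A were also lower at that level (log2 differences of -0.85 and -0.65, against -0.38 and -0.26 with it).

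The genes of fatty acid synthesis were lower in 4 of the 5 pigs of group III and high in pig 48. ACLY (ENSSSCG00000017421) was at 211, 151, 104 and 199 CPM in pigs 41, 43, 45 and 46 and at 1417 CPM in pig 48, and at 322 to 1468 CPM with a median of 561 in group I. The 4 pigs lay below every control pig, while pig 48 lay near the highest control. The log2 difference was -0.79 (SE 0.59, edgeR adjusted p = 0.771) with pig 48 and -2.11 without it (DESeq2 adjusted p = 0.00147).

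FASN, fatty acid synthase, was represented by a pair of identifiers with parallel values. ENSSSCG00000029944 was at 2235, 2058, 3076, 3259 and 8527 CPM in pigs 41, 43, 45, 46 and 48, against 3931 to 10583 CPM with a median of 6899 in group I. ENSSSCG00000023044 was at 943, 869, 1248, 1339.5 and 3229 CPM against 1605 to 4148 CPM. Again the 4 pigs lay below all controls and pig 48 inside their range. The log2 difference of the first was -0.89 (SE 0.35, edgeR adjusted p = 0.561) and -1.41 without pig 48, and that of the second -0.91 and -1.38.

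SCD, the stearoyl-CoA desaturase that makes oleate, was at 8261, 2751, 3823, 10514 and 26918 CPM in group III against 12918 to 21957 CPM in group I, so pig 48 exceeded every control pig. ACACA, which makes malonyl-CoA, was at 597, 525, 396, 467 and 1311 CPM against 601 to 1949 CPM. SLC25A1, the citrate carrier, was at 30.4, 37.4, 47.9, 29.8 and 132 CPM against 49.9 to 143 CPM. The pattern of these genes was alike, 4 pigs below the control range and pig 48 within or above it. ME1, malic enzyme, was at 288, 299, 588, 582 and 2358 CPM against 543 to 2053 CPM, with pigs 45 and 46 at the low end of the controls. ACSS2, which activates acetate, was at 68.4, 71.8, 72.1, 101 and 307 CPM against 110 to 286 CPM. Without pig 48 the log2 differences of SCD, ACACA, SLC25A1, ME1 and ACSS2 were -1.44, -1.21, -1.40, -1.51 and -1.24, against -0.72, -0.81, -0.80, -0.60 and -0.59 with it.

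Over the 13 tested identifiers of the lipogenesis list, 4 were lower and 0 higher at an unadjusted p under 0.05 with all pigs, with a median log2 difference of -0.60. Without pig 48, 10 were lower and 0 higher, the median was -1.24, 8 were DESeq2 DEGs and 7 lay below all control pigs, where 75 genes (0.708% of 10595) did so in all. Leaving out any other pig gave medians between -0.73 and -0.44. Pig 48 held the highest value of group III in 10 of the 13, against 25.6% of all tested genes, and the other pigs held the highest value in 12.6 to 23.6% of all genes. The summed adipocyte markers were at 2036 to 2818 CPM in group I, at 1962 to 2144 CPM in the 4 other pigs of group III and at 2549 CPM in pig 48. The part of this sum and of pig 48's mitochondrial share and liver marker sum in these values was not tested. The desaturases FADS1 and FADS2, had log2 differences of -0.41 and 0.02 with pig 48 and -0.42 and 0.11 without it. MLXIPL, the carbohydrate-responsive factor of lipogenic genes, had -0.30 and -0.32.

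Genes of sterol synthesis and acetoacetate use showed the same arrangement with smaller differences. AACS (ENSSSCG00000009755), which turns acetoacetate into acetoacetyl-CoA for lipid synthesis, was at 118, 98.3, 70.6, 104 and 267 CPM in pigs 41, 43, 45, 46 and 48, against 163 to 257 CPM with a median of 218 in group I. Its 4 low pigs lay clear of the controls and pig 48 above all of them. The log2 difference was -0.67 (SE 0.26, edgeR adjusted p = 0.561) with pig 48 and -1.10 without it (edgeR adjusted p = 0.132, DESeq2 adjusted p = 1.44e-06). HMGCS1, the synthase that feeds the mevalonate pathway, was at 32.5, 35.6, 40.8, 44.2 and 63.4 CPM against 48.1 to 76.2 CPM, with log2 differences of -0.55 and, without pig 48, -0.72.

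Over the 9 tested genes of that list, 4 were lower and 0 higher at an unadjusted p under 0.05, with a median of -0.55. Without pig 48, 6 were lower, the median was -0.72 and AACS, HMGCS1, LSS and FDPS were DESeq2 DEGs. FDFT1, squalene synthase, and INSIG1, a sensor that holds back sterol synthesis, had log2 differences of 0.22 and -0.09. Pig 48 held the highest value of group III in 8 of the 9.

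**Figure D2:**
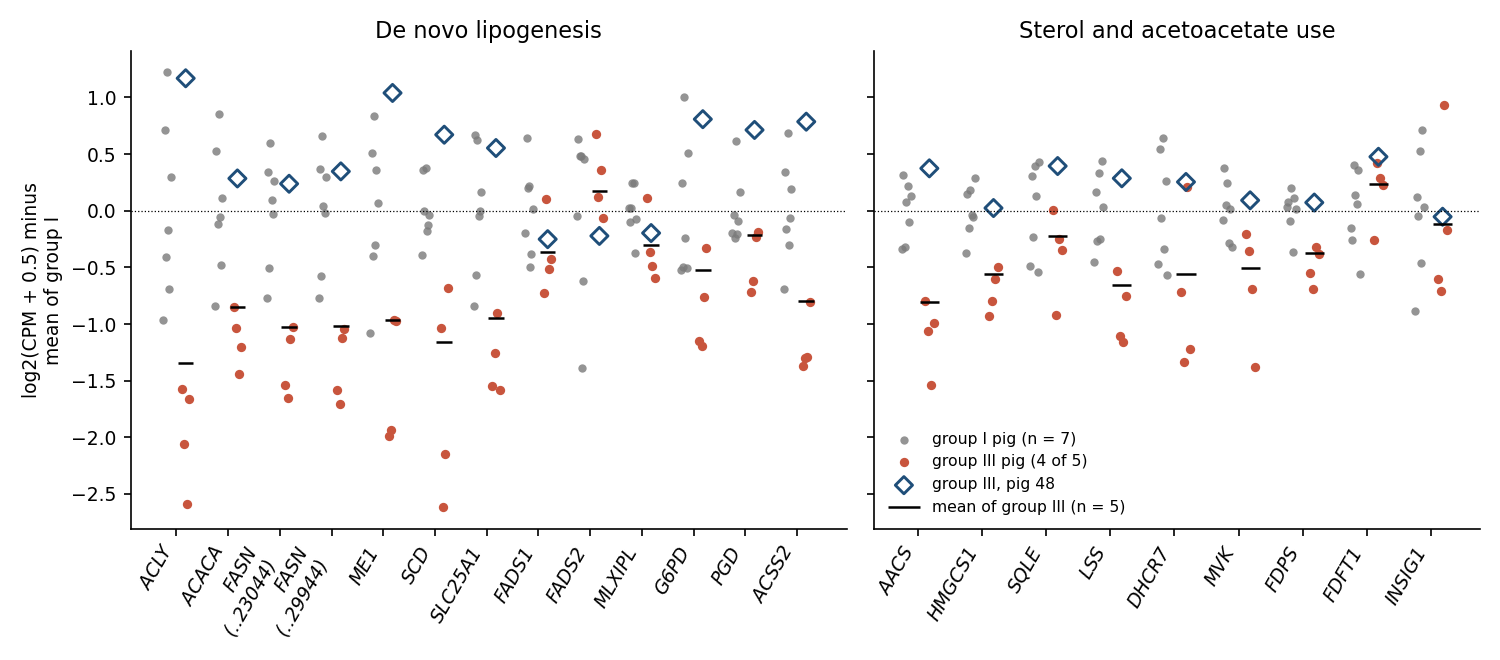
Values of the 13 lipogenic identifiers (left) and of the 9 genes of sterol synthesis and acetoacetate use (right) in each pig, as the difference of log2(CPM + 0.5) from the mean of group I (y axis, log2 units). Grey points are pigs of group I, red points 4 pigs of group III, the open diamond is pig 48 and the line the mean of the 5 pigs of group III. Pig 48 is the highest pig of group III for 10 identifiers on the left and 8 on the right, while for ACLY the other 4 lie at 104 to 211 CPM.

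In triglyceride synthesis and the lipid droplet, 3 of 9 tested genes were lower and 0 higher at an unadjusted p under 0.05, with a median of -0.29. DGAT1, which adds the last acyl chain to a triglyceride, was at 11, 13.2, 9.66, 12 and 17.6 CPM against 15.7 to 24.1 CPM, with pig 48 alone inside the control range. Its log2 difference was -0.62 (SE 0.17, edgeR adjusted p = 0.551) and -0.76 without pig 48 (DESeq2 adjusted p = 0.0125). MOGAT2, a monoacylglycerol acyltransferase, ranged widely among the controls, from 2.71 to 54.5 CPM, and was at 1.85 to 8.4 CPM in group III (log2 difference -2.37, SE 0.72, edgeR adjusted p = 0.555). CIDEC, a protein of large lipid droplets, was at 225 to 299.7 CPM against 211 to 457 CPM.

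Lipolysis and fatty acid uptake had 0 of 7 tested genes at an unadjusted p under 0.05, while without pig 48 ACSL1 and LIPE were lower at that level. LIPE, hormone-sensitive lipase, was at 586, 602, 370.1, 347 and 721 CPM against 532 to 816 CPM, with pigs 45 and 46 below the controls and the others within their range. ACSL1, which activates long-chain fatty acids, had a log2 difference of -0.36 with pig 48 and -0.67 without it. Fatty acid oxidation had 1 higher gene of 10 and a median of 0.07, and without pig 48 ACADL was lower at that level. The higher gene, HADHA of the mitochondrial trifunctional protein, was at 146 to 274 CPM against 139 to 194 CPM. CPT1A, the gate of mitochondrial fatty acid entry, was at 79.4, 50.1, 42.5, 49.4 and 54.4 CPM against 22.5 to 61.2 CPM (log2 difference 0.46, SE 0.22, edgeR adjusted p = 0.628).

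Among 17 tested genes of glucose use, FBP2, a fructose bisphosphatase, was higher and ALDOC and HK1 lower at an unadjusted p under 0.05, and the median was -0.25. HK2, the insulin-responsive hexokinase, was at 51.6, 32.8, 30.7, 30.5 and 92.2 CPM against 31.4 to 122 CPM, with log2 differences of -0.71 and, without pig 48, -1.10. Without pig 48, 8 genes of the list were lower at that level, among them the pyruvate dehydrogenase genes PDHA1, PDHB and PDHX, while the median stayed at -0.25. The nuclear genes of the respiratory chain were lower in small steps. All 19 tested had a negative log2 difference, with a median of -0.24 and 5 genes at an unadjusted p under 0.05, where 5131 of all 10423 tested genes were negative. COX15, which makes heme A for cytochrome oxidase, was at 5.22, 4.47, 4.94, 5.72 and 8.08 CPM against 6.2 to 12.3 CPM. Without pig 48, which was the highest of group III in 17 of the 19, 11 genes were lower at that level and the median was -0.40.

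**Figure D3:**
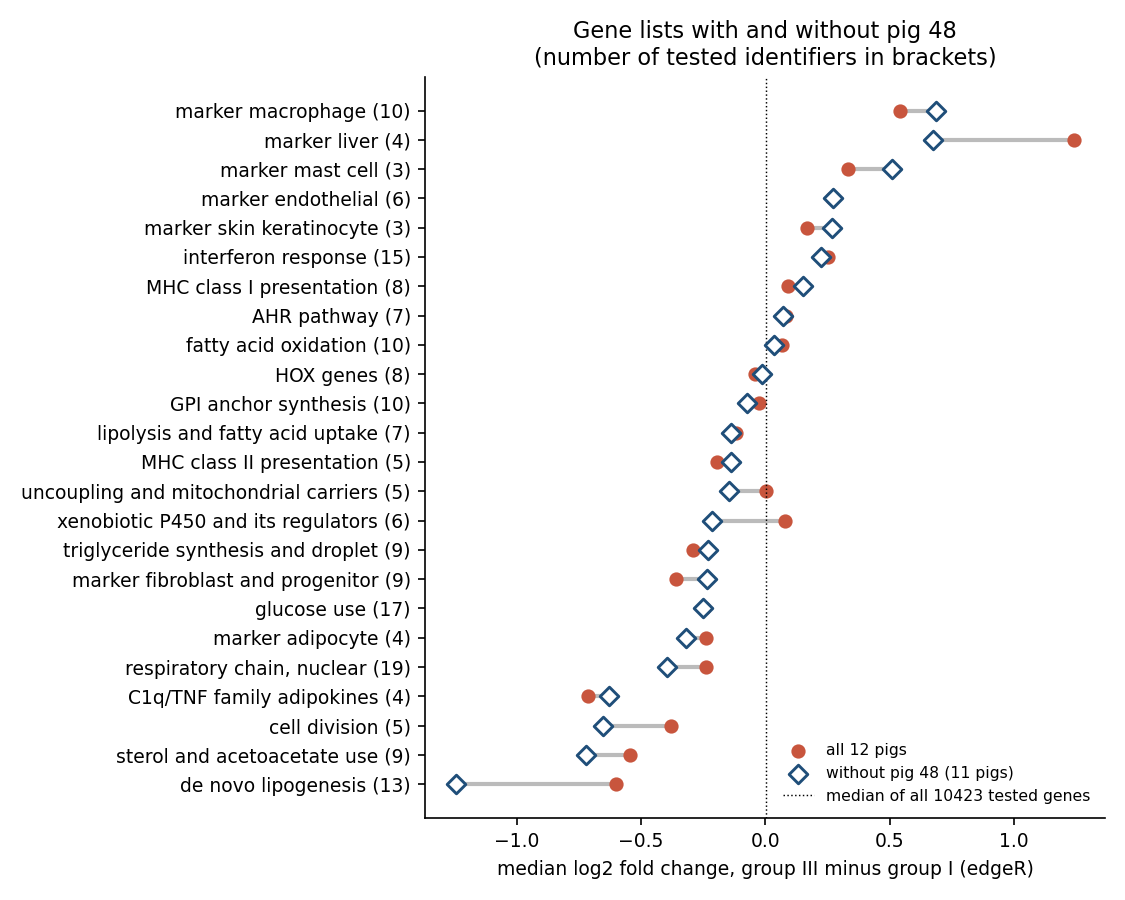
Median edgeR log2 difference of group III from group I (x axis) for each list with at least 3 tested identifiers (y axis, their number in brackets). Red circles are all 12 pigs, open diamonds 11 pigs without pig 48, and the dotted line the median of all tested genes, 0.00. The lipogenesis list moved from -0.60 to -1.24 without pig 48 and the liver markers from 1.24 to 0.67.

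The 72 DESeq2 DEGs found without pig 48 held 11 of the 13 found with all pigs and 61 others. The 2 not shared were HOXC10 and ENSSSCG00000023855, both at low CPM. DESeq2 gave an adjusted p to 12746 genes with all pigs and to 7153 without pig 48. The part of this change in the number of DEGs was not tested. Among the lower ones were 8 lipogenic identifiers, 4 genes of sterol synthesis and acetoacetate use, and genes of neighbouring steps. PDHB, a subunit of pyruvate dehydrogenase, was at 145, 175, 201 and 225 CPM in pigs 41, 43, 45 and 46, at 736 CPM in pig 48 and at 199 to 669 CPM in group I. ECHDC1, which clears a side product of fatty acid synthesis, was at 80, 84.7, 89.5, 125 and 350 CPM against 112 to 268 CPM. HSD17B12, which elongates long-chain fatty acids, was at 149, 118, 176, 179 and 328 CPM against 182 to 339 CPM. Pig 48 was the highest of group III for 50 of the 57 lower genes and at or above the control median for 44, an arrangement that choosing genes without pig 48 favours.

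Of the 15 DEGs overexpressed without pig 48, AHR, TIPARP, SLA-1, CYP2B6 and PIGY were on the study list. FST, follistatin, an inhibitor of activin and myostatin, was at 19.7, 30.7, 29.8, 21.7 and 12.1 CPM against 3.18 to 15 CPM (log2 difference 1.27 with pig 48, SE 0.32, edgeR adjusted p = 0.478). CYGB, cytoglobin, was at 29, 29.7, 39.7, 34.6 and 20.7 CPM against 16.1 to 23.9 CPM. SPARCL1, a secreted matrix protein, was at 626, 346, 555, 523 and 332 CPM against 181 to 421 CPM. For these genes pig 48 was lowest in its group, as it was for 8 of the 15, an arrangement that choosing genes without pig 48 favours. Pig 48 lay above the control range for 6 others of the 15, namely AHR, TIPARP, SLA-1, PIGY, TMEM150C and ZCCHC2.

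Beyond these lists, the genes with the smallest edgeR p-values included several with groups that did not overlap. KCNQ5, a potassium channel, was at 10.4, 6.78, 9.02, 6.45 and 12.8 CPM against 1.12 to 5.99 CPM, with a log2 difference of 1.28 (SE 0.32, edgeR adjusted p = 0.478). ANKRD11, a chromatin regulator, was at 33.9, 41.9, 34.3, 44.6 and 43.7 CPM against 16.3 to 33.1 CPM, and NEBL, an actin-binding protein, was at 13.1 to 23.3 CPM against 8.05 to 12.1 CPM. In each of these the pigs of group III, pig 48 included, lay above every control pig. RRAGD, a GTPase that relays amino acid supply to mTORC1, was at 6.01 to 11.4 CPM against 2.08 to 7.76 CPM, so its groups overlapped, as did those of ZCCHC2, TMEM150C and FST. APOA4, an apolipoprotein made in gut and liver, had the largest difference among them, 2.81 (SE 0.67), at 3.48, 2.16, 11.2, 4.99 and 20.7 CPM against 0 to 3.64 CPM. APOA4 is itself among the 4 tested liver markers. All 4 had a positive log2 difference, with ALB at 48.1 to 1107 CPM against 3.26 to 695 CPM. Only APOA4 among them had an unadjusted p under 0.05, and the part of the other liver markers in its value was not tested.

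Among the lower genes, UMPS, which makes uridine monophosphate, was at 16.2, 17.9, 16.3, 15.7 and 19.7 CPM against 20.6 to 32.4 CPM, and LRRC59, a ribosome-binding membrane protein, was at 14.6 to 19 CPM against 19 to 30.5 CPM. All pigs of group III lay below the controls for both, by a narrow margin for LRRC59. ADCY5, an adenylate cyclase, was at 72.4, 48.5, 27.3, 41.8 and 48.7 CPM against 55 to 138 CPM, and BMAL1, a core clock factor, at 8.98, 4.01, 4.94, 7.04 and 5.46 CPM against 8.17 to 14 CPM. CREB3L1, a factor that turns on collagen genes, was at 39.4, 59.2, 17.8, 36.8 and 31.6 CPM against 47.2 to 94 CPM. In these 3 genes 1 pig of group III lay inside the control range and the rest below it. GXYLT2, RASAL3 and MFNG had log2 differences of -0.73, -1.58 and -0.67, with edgeR adjusted p-values of 0.478.

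Some markers of other cell types differed between the groups at an unadjusted p under 0.05, but no summed marker list passed after adjustment. The summed fibroblast and progenitor markers were at 4996 to 11377 CPM in group III and at 8653 to 15440 CPM in group I (exact permutation p = 0.0227, adjusted p = 0.212), and 4 of 9, COL1A2, COL3A1, LUM and 1 of 2 PDGFRB identifiers, were lower at an unadjusted p under 0.05. Without pig 48, 0 of the 9 passed at that level and the median went from -0.36 to -0.23. COL1A2, a chain of type I collagen, was at 1259, 2476, 741, 1248 and 892 CPM against 1487 to 2854 CPM, with pig 43 among the controls. Of 10 macrophage markers, 9 had a positive log2 difference, 2 of them at an unadjusted p under 0.05, with a median of 0.54, and C1QA, a complement chain made by macrophages, was at 13.3, 51, 24.3, 29.6 and 16.4 CPM against 3.57 to 26.5 CPM. MS4A7 was the exception, at 1.72 to 4.06 CPM against 3.18 to 14.2 CPM. The macrophage median was 0.28 without pig 43 and 0.69 without pig 48, when 4 markers were higher at that level. The 6 tested endothelial markers had a median of 0.27, with NOTCH4 and PCDH12 higher at an unadjusted p under 0.05. Of the other markers, 3 B cell genes were near 0 with a summed level of at most 1.23 CPM, the keratinocyte gene KRT1 was at 0 in every pig, and the muscle gene ACTA1 ran from 0.891 to 961 CPM in group I and from 1.74 to 1566 CPM in group III. The part of these cell types in the results above was not tested.

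Groups II and IV, which ate cDDGS with rapeseed oil or coconut oil, were set directly against group III, so that only the fat differed. edgeR gave 0 DEGs between groups III and II, with 647 genes at an unadjusted p under 0.05 (6.22% of 10410), and 0 DEGs between groups III and IV, with 421 genes (4.12% of 10230). Without pig 48 there were again 0 DEGs in both, with 608 (5.86% of 10378) and 678 genes (6.5% of 10436) at that level.

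TIPARP had a median of 57.6 CPM in group II and 82.2 CPM in group IV, against 115 CPM in group III and 70.9 CPM in group I. Group III was above group II by 0.96 on the log2 scale (edgeR unadjusted p = 0.000295), and the highest pig of group II lay just below the lowest of group III. Against group IV the log2 difference of TIPARP was 0.44 (unadjusted p = 0.0784), with overlapping ranges. AHR was at 19.3 to 40.6 CPM in group II and 20.5 to 41.2 CPM in group IV, ranges that overlap with group III, with log2 differences of 0.50 and 0.49 (edgeR unadjusted p = 0.0296 and 0.0243). SLA-1 was higher in group III by 1.10 against group II (unadjusted p = 0.00202) and by 0.65 against group IV (unadjusted p = 0.0578). UCP2 gave log2 differences of -0.72 against group II and -0.42 against group IV (edgeR unadjusted p = 0.0393 and 0.138), and ALDOC gave -0.02 and -0.16.

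For the lipogenic genes, the place of group III relative to the other cDDGS groups turned on pig 48. ACLY had a median of 226 CPM in group II, 334 CPM in group IV and 199 CPM in group III, against 561 CPM in group I. AACS was at 99.8 to 133 CPM in group II and 119 to 190 CPM in group IV, and pig 48 at 267 CPM was above all other pigs that ate cDDGS. With pig 48, the median log2 difference of the lipogenesis list was 0.10 between groups III and II and -0.24 between groups III and IV, and 0 of its 13 members had an unadjusted p under 0.05 in either comparison. Without pig 48 the medians were -0.35 and -0.67, with 3 and 10 members lower at that level. Over all tested genes, 5.86% and 6.5% passed that level in either direction. Group IV also held a high pig, pig 52, which was kept in these fits. Its ACLY was at 1138 CPM against 164 to 485 CPM in the rest of group IV, and its AACS was the highest of that group. The part of pig 52 in the difference from group IV was not tested. The sterol list gave medians of -0.01 and -0.10 with pig 48 and -0.18 and -0.27 without it.

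Other lists differed between groups III and II. Of 6 tested cell division genes 5, and 6 of 10 macrophage markers, were lower in group III than in group II at an unadjusted p under 0.05, with medians of -1.17 and -0.65, and without pig 48 these were 4 of 5 genes and 3 of 10 markers. With all pigs, 341 of 10309 genes that were also tested between groups III and I were lower at that level. The respiratory chain list had medians of 0.25 against group II and 0.09 against group IV with pig 48, and of 0.08 and -0.09 without it.

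**Figure D4:**
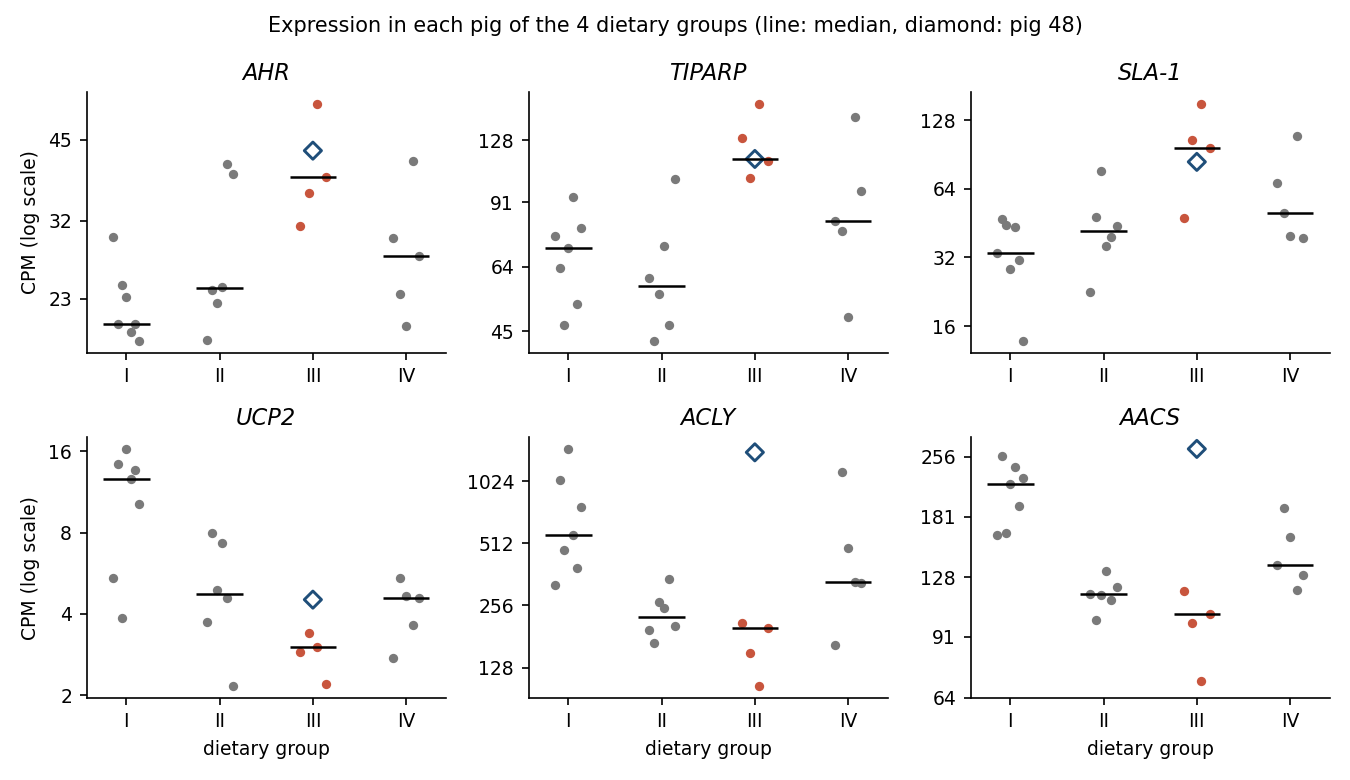
CPM of 6 genes in each pig (y axis, log scale) by dietary group (x axis: I control, II cDDGS with rapeseed oil, III cDDGS with beef tallow in red, IV cDDGS with coconut oil). Lines are medians and the diamond is pig 48. The pigs of group III lie above all pigs of group I for TIPARP, at 104 to 156 CPM against at most 93.5 CPM, and for ACLY and AACS pig 48 stands with the control pigs at 1417 and 267 CPM while the other 4 lie at 104 to 211 and 70.6 to 118 CPM.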

How the data were processed

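Backfat total RNA, partly degraded according to the study, was sequenced after ribosomal depletion (SMARTer stranded kit, single-end reads, HiScanSQ). Per the labels and the study's methods, the authors used bcl2fastq, FastQC, FLEXBAR, TopHat and HTSeq, and deposited raw read counts per Ensembl gene and pig. RSEM is also named in the labels. The build used for these counts could not be settled from the identifiers, so no coordinates are given. The 5 summary rows were removed, leaving 25322 genes, of which 11887 received a symbol: 291 from the study's tables and the rest from a reference table.

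Counts of the 12 pigs were tested with edgeR 4.0.16 (R 4.3.3, TMM, filterByExpr, quasi-likelihood test, Benjamini-Hochberg adjustment over all tested genes). A DEG had an adjusted p under 0.05 and a fold change above 1.3. DESeq2 1.42.0, the authors' tool, and limma-voom with library quality weights (limma 3.58.1) were alternatives. CPM were scaled by TMM over all 23 pigs. At the depths given above, 1 CPM stands for about 3 to 8 reads. The exact permutation test enumerated all regroupings of the 12 pigs on the mean of log2(CPM + 0.5), two-sided. The fits were checked on simulated counts. Libraries within a group differed beyond sampling noise in all 31 pairs (smallest chi-square per degree of freedom 8.82). Each pig is a separate animal.

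Named genes were the 13 listed by the study, the 8 higher and 8 lower symbols with the smallest edgeR p outside that list (with up to 2 identifiers without symbol each way), and up to 4 members of each of 28 gene lists. The members, the lists and pig 48 were chosen with earlier results of these data known. Other lipogenic and sterol genes and genes called only without pig 48 were named after their values were seen. Some genes of the sterol list are not reported here. RNA integrity entered as a covariate only.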

Additional observations from a re-analysis of the deposited data

Results flagged for a closer look

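Among 138 tests for a pig far from the others of its group, 8 were positive, and chance flags about 1 in 20. Pig 48 held 3 of these values: ACLY at 1417 CPM against 104 to 211 CPM in the other 4 pigs of group III, ACSS2 at 307 CPM against 68.4 to 101 CPM, and 12.9% of reads on the named mitochondrially encoded genes against 9.79 to 10.4%. In group III, CLMN was at 26.2 CPM in pig 45 against 47.5 to 58 CPM, and LRRC59 at 14.6 CPM in pig 43 against 18.5 to 19 CPM. In group I, SLA-1 was at 13.8 CPM in pig 8 against 28.5 to 47.4 CPM, the summed liver markers were at 4.52 CPM in pig 1 against 91.5 to 712 CPM, and pig 6 had 3006222 gene reads against 4243290 to 5261962. In the edgeR test of whether the difference between groups III and I itself differed between females and males, 0 of 10423 genes had an adjusted p under 0.05 (smallest 0.804), and 405 had an unadjusted p under 0.05.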

How the results depend on the processing

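No paired analysis was possible because the pigs are separate animals with numbers that no other group shares. The count of 0 edgeR DEGs remained 0 with median-ratio size factors, a stricter filter on low counts, sex, RNA integrity or the share of reads outside genes as a covariate, all 23 pigs in 1 fit, limma-voom and no fold limit. DESeq2 gave 13 DEGs, edgeR without a filter on low counts gave 1 (ENSSSCG00000023855), and limma-voom without pig 48 gave 1 (AACS). Leaving out each pig in turn gave 0 to 1 edgeR DEGs and 5 to 72 DESeq2 DEGs. The 1 edgeR DEG came without pig 43 and was ENSSSCG00000029881, at 2.86 to 12.4 CPM in group I and at 0, 9.71, 0, 0 and 0.238 CPM in pigs 41, 43, 45, 46 and 48. Higher genes at an unadjusted p under 0.05 numbered 703 in limma-voom, 661 without the filter and 316 to 492 when pigs were left out, and lower genes 675 in limma-voom and 279 to 537. The causes were not tested.

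Of 2408 values of 116 named genes under the alternatives, 21 in 7 genes had the opposite sign. limma-voom gave 0.12 for SLA-DOA, -0.027 for SLC25A5, 0.057 for KIT and -0.020 for DSP. Sex as a covariate gave -0.013 for SLC25A5, -0.20 for TNNC2, -0.79 for ACTA1 and -0.028 for DSP, and RNA integrity gave -0.041 for SLC25A5. Without single pigs the values ran from -0.55 to 0.088 for UCP3, from -0.10 to 0.25 for SLC25A5, from -0.31 to 0.047 for KIT, from -0.21 to 1.71 for TNNC2, from -1.19 to 1.19 for ACTA1 and from -0.21 to 0.28 for DSP. The 12 values that newly passed the adjusted threshold were all from DESeq2. Alternatives without pig 48 for lists, limma-voom and groups II and IV, and DESeq2 with pigs left out, were added after seeing the data. With 5 pigs in group III and about 3 to 8 reads behind 1 CPM, differences of genes such as HOXC10 rest on few reads.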

Other observations

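Genes that make and process fibrillar collagen, collected after their values were seen and so without a test, had lower fitted levels in group III as a set. All 19 tested genes had a negative log2 difference in edgeR, with a median of -0.37 and 9 at an unadjusted p under 0.05, where 3.9% of all genes were lower at that level. The groups overlapped for all 19, and 0 of them were DESeq2 DEGs. ADAMTS2, which trims procollagen, was at 116, 125, 95.3, 113 and 103 CPM in pigs 41, 43, 45, 46 and 48 and at 118 to 171 CPM in group I (log2 difference -0.45, SE 0.12, edgeR adjusted p = 0.503). SERPINH1, the collagen chaperone, was at 144, 121, 84.1, 88.5 and 90.7 CPM against 107 to 187 CPM, and BMP1, another procollagen protease, at 61.4, 53.8, 34.8, 45.2 and 45.8 CPM against 44.9 to 82.8 CPM. In each of these 3 genes pig 45 was lowest, and pig 48 lay with the rest of its group. Without pig 48 the median over 21 tested genes was -0.41 with 7 lower genes. COL1A2 and COL3A1 belong both to this list and to the fibroblast markers. The fibroblast marker sum given above is therefore not a separate measure, and its part was not tested.

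For most enzymes of pyruvate, citrate and pentose metabolism, also collected after their values were seen, pig 48 was the highest of its group. PDHA1, PDHB and PDHX among them also belong to the glucose use list above. With all pigs 1 of 19 was lower at an unadjusted p under 0.05 (ACO1) and the median was -0.32. Without pig 48, 10 were lower, the median was -0.40, and PDHA1, PDHB, DLAT, ACO1, MDH1 and TALDO1 were DESeq2 DEGs. TALDO1, a transaldolase of the pentose pathway, was at 96.5, 88.4, 98.7, 97.9 and 235 CPM in pigs 41, 43, 45, 46 and 48 against 101 to 247 CPM in group I. The 4 low pigs lay just below all controls. Calling genes without pig 48 favours such an arrangement. Pyruvate carboxylase (PC) and IDH1 had log2 differences of 0.12 and 0.03. Pig 48 was not the highest of group III for PC, IDH1 and IDH2, and for IDH2 it was lowest, at 21.9 CPM.

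Of 13 tested clock genes, BMAL1 and CRY1 were lower and RORA higher at an unadjusted p under 0.05, and the median was -0.01. CRY1, a repressor of the clock, was at 7.09 to 11.9 CPM in group III and 10.2 to 25.2 CPM in group I (log2 difference -0.71, SE 0.23, edgeR adjusted p = 0.555), and PER1 and PER2 had log2 differences of 0.20 each. The hour of slaughter of each pig was not given in the sources used here.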
